A study of Rattus norvegicus with 3 samples.

Results

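Voltage-gated and potassium channel genes were described by the Seh1 peaks that lay nearest to them in rat oligodendrocyte progenitor cells (OPC). Of 9084 annotated OPC peaks, 111 (1.22%, 95% exact binomial interval 1.01 to 1.47%) had a nearest gene whose name starts with Kcn, with Scn, a digit and a or b, or with Cacn. Of these, 72 peaks belonged to potassium channel genes, 10 to sodium channel genes and 29 to calcium channel genes. Membership was set by gene name alone, and position, score and presence in the other stage were not criteria. The gene families themselves were chosen with earlier results of these data known, so the choice was not blind to them. Seh1 is a protein of the nuclear pore complex, and its chromatin contacts were mapped by chromatin immunoprecipitation with sequencing (ChIP-seq). Immature oligodendrocytes (iOL) had been kept for 1 day with triiodothyronine (T3, 60 nM), with CNTF, and without PDGF-AA, bFGF and NT3. OPC were grown with PDGF-AA, CNTF, bFGF and NT3. Both came from the forebrain of Sprague Dawley rat pups at postnatal day 1 to 2. There was 1 Seh1 library per stage and 1 IgG library of iOL, which was not analysed here. The series holds no IgG library of OPC. The depth is unknown, since no source at hand states read totals. With 1 library per stage nothing below carries a replicate check or a test, and intervals cover counting error only. A peak list holds no expression, so cell identity was not checked against markers. Several peaks can share a gene or a locus and are then not independent of each other.

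Voltage-gated channels open on depolarisation of the membrane, and each family has pore subunits and auxiliary subunits that set its number and gating at the surface. Sodium channels carry the rising phase of the action potential, calcium channels couple voltage to calcium entry, and potassium channels repolarise the membrane or hold it at rest. Cells of the oligodendrocyte lineage also use such channels: OPC have voltage-gated currents, and inward rectifying potassium channels with the pore subunit Kcnj10 take up potassium in glia.

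Peaks that reach the 250 bases upstream of a start site by their distance were found for the potassium channel genes Kcnq5, Kcnh8, Kcnmb4 and Kcnv1 and for the calcium channel gene Cacna2d2, among others. The upstream windows of 4 of them are shown because the peaks at these promoters are among the members closest to a transcription start site (TSS). The sequences are from RefSeq on build GRCr8, 5' to 3' on the gene's strand. The peaks are on build rn6 and were placed by their distance to the TSS, so the match of the TSS between the builds was not checked. For Kcnh8 the strand differs: the peak distances on rn6 place the gene on the minus strand, and its GRCr8 window is on the plus strand. Capitals mark the E-box letters CAGCTG, as well as CATCTG and CAGATG, searched because Olig2, a basic helix-loop-helix factor named in the series title, is known to bind E-boxes. CATCTG and CAGATG are the same motif on opposite strands, and CAGCTG reads alike on both.
Kcnq5, chr9:31891282-31891531, strand -: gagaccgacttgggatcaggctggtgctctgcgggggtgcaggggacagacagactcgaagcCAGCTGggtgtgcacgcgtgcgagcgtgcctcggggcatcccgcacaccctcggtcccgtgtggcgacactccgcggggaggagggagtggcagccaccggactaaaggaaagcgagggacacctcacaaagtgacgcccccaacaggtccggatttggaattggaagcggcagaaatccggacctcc
Kcnh8, chr9:5742433-5742682, strand +: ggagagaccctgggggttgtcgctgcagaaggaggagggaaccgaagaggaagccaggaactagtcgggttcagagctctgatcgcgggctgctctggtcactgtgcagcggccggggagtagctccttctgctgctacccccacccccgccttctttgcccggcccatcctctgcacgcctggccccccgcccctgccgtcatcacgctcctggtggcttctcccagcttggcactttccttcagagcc
Kcnmb4, chr7:54005102-54005351, strand -: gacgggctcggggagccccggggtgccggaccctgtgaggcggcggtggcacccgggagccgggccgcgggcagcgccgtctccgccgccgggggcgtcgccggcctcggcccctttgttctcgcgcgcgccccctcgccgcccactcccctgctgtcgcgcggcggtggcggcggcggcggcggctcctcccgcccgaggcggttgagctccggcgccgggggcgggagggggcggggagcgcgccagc
Cacna2d2, chr8:116950856-116951105, strand +: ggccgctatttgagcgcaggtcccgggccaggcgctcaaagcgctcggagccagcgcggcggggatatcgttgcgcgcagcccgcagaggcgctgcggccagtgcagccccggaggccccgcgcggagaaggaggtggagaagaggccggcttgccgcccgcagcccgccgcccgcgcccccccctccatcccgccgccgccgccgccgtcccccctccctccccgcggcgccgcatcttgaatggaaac
Of the 4 windows, that of Kcnq5 held 1 CAGCTG and the others held none of the 3 motifs. By distance, the peaks covered 205 bases of the Kcnq5 window, 155 of the Kcnh8 window, 58 of the Kcnmb4 window and 19 of the Cacna2d2 window. The peak at Kcnq5 reached from -232 to -28 relative to the TSS. The windows were rich in G and C, with 65.2% in Kcnq5, 65.6% in Kcnh8, 84.4% in Kcnmb4 and 76.8% in Cacna2d2, and held 20, 13, 44 and 36 CpG dinucleotides in that order.

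More widely, 90 of 133 channel genes had an upstream window in the RefSeq table, and the groups below hold only such genes. Of the channel genes with a peak within 1 kb of the TSS, 9 had a window. These had a median of 71.6% G and C (quartiles 65.2 and 76.8%) and 21 CpG. The 31 windows of channel genes whose peaks lay farther out had a median of 59.6%. Windows at hand for 50 of the 69 channel genes without a peak also had 59.6%. Over 15165 coding genes the median was 57.2% (quartiles 48.8 and 64.8%) with 12 CpG. The lowest G and C share among the 9 was at Cacng2 (38.4%) and the next at Kcnab3 (52.8%). CAGCTG was found in 22 of 90 channel windows (24.4%), against 12.1% of all windows. It stood in 2 of 9 windows with a peak within 1 kb (Kcnq5 with 1 and Scn4b with 2), in 7 of 31 with peaks farther out and in 13 of 50 without a peak. CATCTG or CAGATG was found in 2.22% of channel windows and in 11.2% of all windows.

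The first comparison asked how many channel genes had an OPC peak. Of 133 coding channel genes with a RefSeq mRNA, 64 were the nearest gene of at least 1 peak (48.1%, 95% exact binomial interval 39.4 to 56.9%). Over all 18539 coding genes with a RefSeq mRNA the share was 30.1%. Calcium channel genes had a peak in 15 of 26 genes (57.7%, 36.9 to 76.6%), sodium channel genes in 7 of 14 (50%, 23.0 to 77.0%) and potassium channel genes in 42 of 93 (45.2%, 34.8 to 55.8%). The intervals of the 3 families overlap widely. A gene far from its neighbours collects more peaks by the nearest-gene rule; the length of genome around each gene was not measured, and its part in these shares was not tested. Potassium genes were 69.9% of the channel genes and held 64.9% of the channel peaks (95% exact binomial interval 55.2 to 73.7%). Calcium genes were 19.5% of the genes and held 26.1% of the peaks (18.2 to 35.3%), and sodium genes 10.5% and 9.01% (4.41 to 15.9%).

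**Figure D1:**
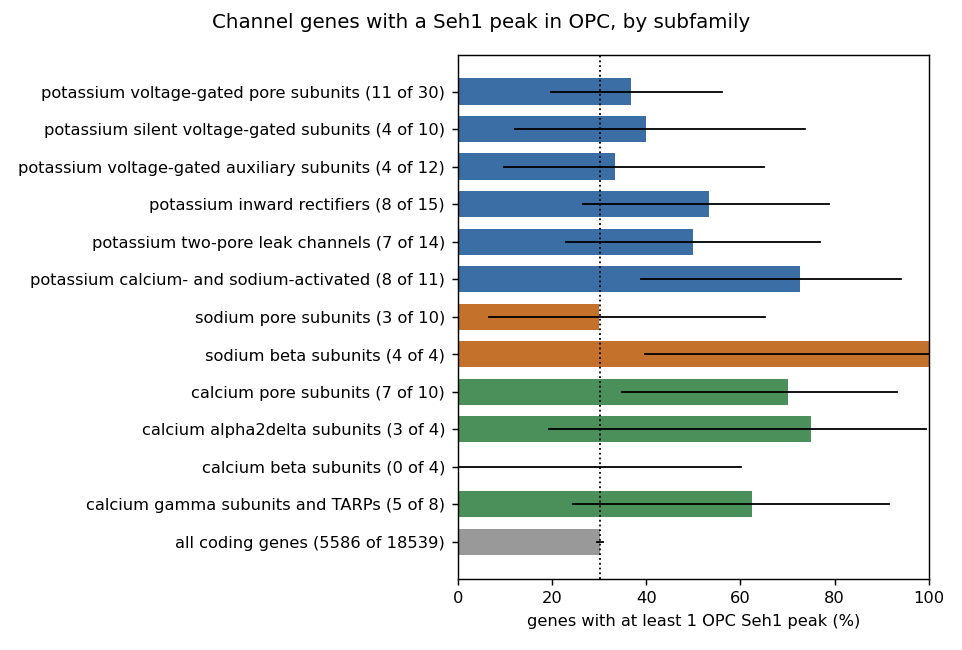
Share of channel genes with at least 1 OPC Seh1 peak (x axis, %), by subfamily (y axis, with counts), and over all coding genes in the bottom row. Lines are 95% exact binomial intervals and the dotted line is the share over all coding genes, 30.1%. Sodium beta subunits had a peak in 4 of 4 genes and calcium beta subunits in 0 of 4.

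Among potassium channels, the calcium- and sodium-activated group had the highest share, 8 of 11 genes (72.7%, 95% exact binomial interval 39.0 to 94.0%). It held the pore gene of the large-conductance BK channel Kcnma1, the BK auxiliary genes Kcnmb1 and Kcnmb4, the small and intermediate conductance genes Kcnn2, Kcnn3 and Kcnn4 and the sodium-activated genes Kcnt1 and Kcnt2. Kcnmb2, Kcnmb3 and Kcnn1 had no peak. Inward rectifiers had a peak in 8 of 15 genes (Kcnj2, Kcnj3, Kcnj4, Kcnj5, Kcnj6, Kcnj8, Kcnj11 and Kcnj12), and the leak channels named Kcnk, which set the resting potential, in 7 of 14 (Kcnk1, Kcnk2, Kcnk3, Kcnk5, Kcnk9, Kcnk10 and Kcnk16). Voltage-gated pore subunits had one in 11 of 30 genes, silent subunits, which form channels only with other pore subunits, in 4 of 10, and auxiliary subunits in 4 of 12. The last 3 groups stood at 36.7%, 40.0% and 33.3%, beside 30.1% over all coding genes. No peak was nearest to Kcnj10 or to its partner gene Kcnj16, inward rectifier genes prominent in glia, nor to Kcna3, a voltage-gated pore gene linked to OPC proliferation. These 3 genes were picked after the counts were seen, from the 51 of 93 potassium channel genes without a peak.

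All 4 sodium channel beta subunit genes, which encode adhesion-like auxiliary proteins, had a peak (4 of 4, 95% exact binomial interval 39.8 to 100.0%). Of 10 pore genes, 3 had one (30.0%, 6.67 to 65.2%), beside 30.1% over all coding genes, and the intervals of the beta and pore genes overlap. The 3 were the skeletal muscle gene Scn4a and the sensory neuron genes Scn10a and Scn11a. The pore genes of central neurons, Scn1a, Scn2a, Scn3a and Scn8a, were among those with none. Some peaks at beta subunit genes lay in another gene. Both Scn3b peaks lay in introns of Gramd1b, 33.2 and 64.3 kb downstream of the TSS. Scn2b had a peak at -10.1 kb between genes and another in its own first intron at 4.55 kb. Scn4b, beside it on chromosome 8, had a peak in its first intron at 417 bp. Its position was 49441421 to 49441625. With 4 genes in a group, 1 gene moves the share of beta subunits by a large step.

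Calcium channel genes were counted by subunit in the same way, and the intervals of the 4 groups overlap widely. Pore genes had a peak in 7 of 10 (70.0%, 95% exact binomial interval 34.8 to 93.3%): Cacna1b (N-type), Cacna1c, Cacna1d and Cacna1s (L-type) and all 3 T-type genes, Cacna1g, Cacna1h and Cacna1i. Cacna1a, Cacna1e and Cacna1f had none. The alpha2delta genes, whose products sit outside the membrane and promote channel traffic, had one in 3 of 4, all but Cacna2d4. The intracellular beta subunit genes Cacnb1 to Cacnb4 had none (0 of 4, 95% exact binomial interval 0.0 to 60.2%). The gamma group, several of which are partners of AMPA glutamate receptors, had one in 5 of 8 (62.5%, 24.5 to 91.5%): Cacng1, Cacng2, Cacng4, Cacng5 and Cacng7. Over all coding genes the share was 30.1%. The intervals of the alpha2delta, beta and gamma groups include it, and that of the pore genes starts above it.

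Most genes had few peaks. Of the 64 channel genes, 38 had 1 peak, 15 had 2 and 11 had 3 or more. Those 11 are 8.27% of the 133 channel genes, beside 3.87% of all coding genes. The highest count was 5, reached by Kcnip1, Kcnma1, Cacna1b and Cacna1i. The highest count over all coding genes was 11. Over genes with a peak the mean was 1.73 peaks in channel genes and 1.57 in all coding genes.

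The second comparison asked where the channel peaks lay. Channel peaks lay in introns in 59 of 111 cases (53.2%, 95% exact binomial interval 43.4 to 62.7%), beside 29.4% of all annotated peaks. They lay between genes in 39 cases (35.1%, 26.3 to 44.8%), beside 56.7%. Promoters held 8 channel peaks (7.21%, 3.16 to 13.7%), beside 4.02%, while 16 lay within 3000 bp of a TSS (14.4%), beside 13.8%. Exons held 5 (4.5%, 1.48 to 10.2%), beside 6.8%. No channel peak was in a UTR or at a transcription end site, classes that held 0.837% (3' UTR), 0.705% (5' UTR) and 1.4% (end site) of all peaks. Annotated repeats held 37 channel peaks (33.3%, 24.7 to 42.9%), beside 33.2%.

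**Figure D2:**
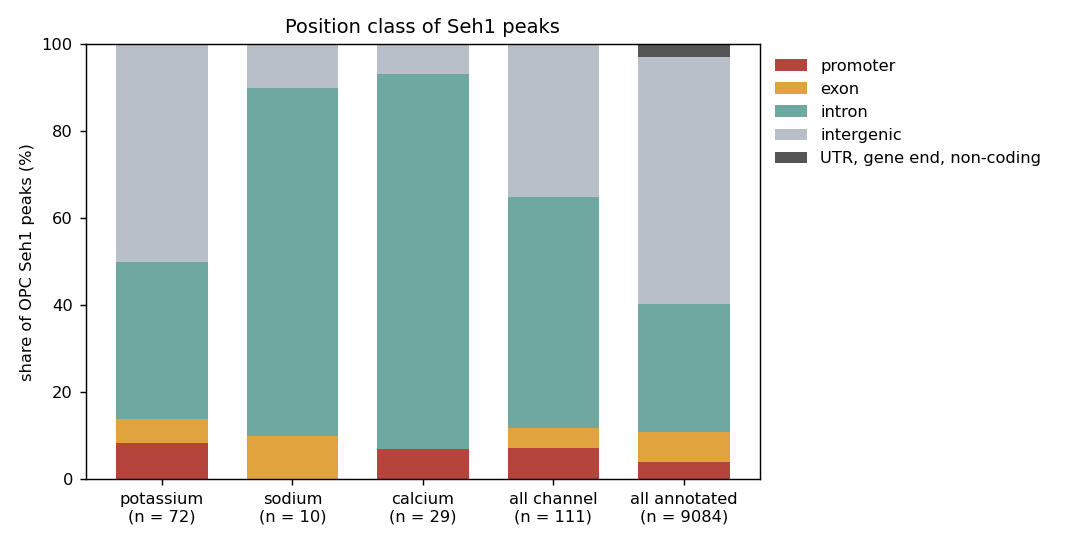
Position class of OPC Seh1 peaks as shares of peaks (y axis, %) for potassium, sodium and calcium channel genes, all channel genes and all annotated peaks (x axis, with the number of peaks). Introns held 36.1%, 80.0% and 86.2% in the 3 families, and 29.4% of all annotated peaks.

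By family, calcium channel peaks were intronic in 25 of 29 cases (86.2%, 95% exact binomial interval 68.3 to 96.1%) and intergenic in 2. Sodium channel peaks were intronic in 8 of 10 cases (80.0%, 44.4 to 97.5%). Potassium channel peaks were intronic in 26 of 72 cases (36.1%, 25.1 to 48.3%) and intergenic in 36 (50%, 38.0 to 62.0%). The counting intervals for calcium and potassium do not overlap, but the difference was not tested, since peaks of 1 gene are not independent. Without Cacna1b and Cacna1i, which hold 10 of the calcium peaks, 15 of 19 were intronic (78.9%, 54.4 to 93.9%). Counted by gene, 10 of 15 calcium genes had a peak in an intron of their own (66.7%, 38.4 to 88.2%), 5 of 7 sodium genes (71.4%, 29.0 to 96.3%) and 15 of 42 potassium genes (35.7%, 21.6 to 52.0%). By gene, the intervals for calcium and potassium overlap. The genes also differed in structure: among genes with such a peak the transcript had a median of 38 introns in calcium genes (4 to 50), 24 in sodium genes (3 to 28) and 7 in potassium genes (2 to 31). Its part in the split was not tested.

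The annotated intron is not always that of the named channel. Of 72 channel peaks inside a transcript or at its promoter, 62 lay in the named channel gene and 10 in another gene. Over all annotated peaks with a host gene, 2988 of 3906 lay in the named gene and 918 in another. Lying in another gene is thus not particular to channel peaks. Both Kcnj11 peaks, at -5.68 and -17.2 kb, lay in introns of Abcc8. Kcnj11 encodes the pore and Abcc8 the sulfonylurea receptor of the same ATP-sensitive potassium channel, and the genes are neighbours. The Kcnmb1 peak lay in intron 1 of Kcnip1, so its locus is also that of a Kv4 partner gene. Other hosts were Hpse2 (Kcnip2 peak), Gramd1b (Scn3b), Pclo (Cacna2d1, -400.5 kb), Helz (Cacng1) and Prkca (Cacng5). First introns held 24 of the 59 intronic channel peaks (40.7%, 95% exact binomial interval 28.1 to 54.3%), beside 31.1% of all intronic peaks.

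The distance to the nearest TSS had a median of 35.0 kb over channel peaks (quartiles 10.1 and 100 kb) and of 34.8 kb over all annotated peaks (9.8 and 109 kb). Channel peaks lay on the transcribed side of the TSS in 76 of 111 cases (68.5%, 95% exact binomial interval 59.0 to 77.0%), beside 57.6%. By family, the share was 24 of 29 for calcium, 8 of 10 for sodium and 44 of 72 for potassium. The median distance was 14.9 kb for sodium, 42.7 kb for potassium and 52.0 kb for calcium peaks. Within 1 kb of a TSS there were 13 channel peaks (11.7%, 6.39 to 19.2%), beside 9.47% of all peaks. Beyond 100 kb there were 29 (26.1%), beside 26.6%.

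A promoter peak was annotated at 8 channel genes (6.02% of 133), beside 1.9% of all coding genes. Of these, 6 were potassium genes. Kcnj12, an inward rectifier gene, had the promoter peak with the highest score of the 8 (chromosome 10, 47281715 to 47281919, -391 bp, score 10.2). Kcnh8, a voltage-gated pore gene of the Elk type, had a peak of score 9.58 at -198 bp (chromosome 9, 3697832 to 3698036). Kcnq5, a pore gene of the M-current that dampens firing, had one of score 8.94 at -130 bp (chromosome 9, 28141142 to 28141346). The BK auxiliary gene Kcnmb4 had one of score 6.38 at 44 bp (chromosome 7, 59514613 to 59514817). The silent subunit gene Kcnv1 had one of score 6.38 at -104 bp (chromosome 7, 84023207 to 84023411). Among calcium channels, Cacna2d2 had a promoter peak of score 7.66 at 83 bp (chromosome 8, 116154717 to 116154921). Cacng2, known as stargazin, which carries AMPA receptors to synapses, had one of score 8.94 at -581 bp (chromosome 7, 119352512 to 119352716). Scores at these promoters thus spanned from the lower to the upper part of the channel range, and no sodium channel gene had a promoter peak.

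Another 5 peaks lay within 1 kb of a TSS outside the promoter class. Kcnq3, also a pore gene of the M-current, had a peak in exon 1 of 15 at 514 bp (score 7.02), and the Kv beta gene Kcnab3 in exon 1 of 15 at 547 bp (score 7.66). Scn4b (417 bp), Cacna2d1 (358 bp) and Cacna1b (568 bp) had first-intron peaks with scores of 7.02, 7.66 and 7.66. The Cacna1b peak was labelled a CpG island. Exon peaks farther from the TSS were those of Kcnk16 in exon 4 of 5 at 5.09 kb and of Kcnk3, an acid-sensitive leak channel gene, in exon 2 of 2 at 35.0 kb.

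**Figure D3:**
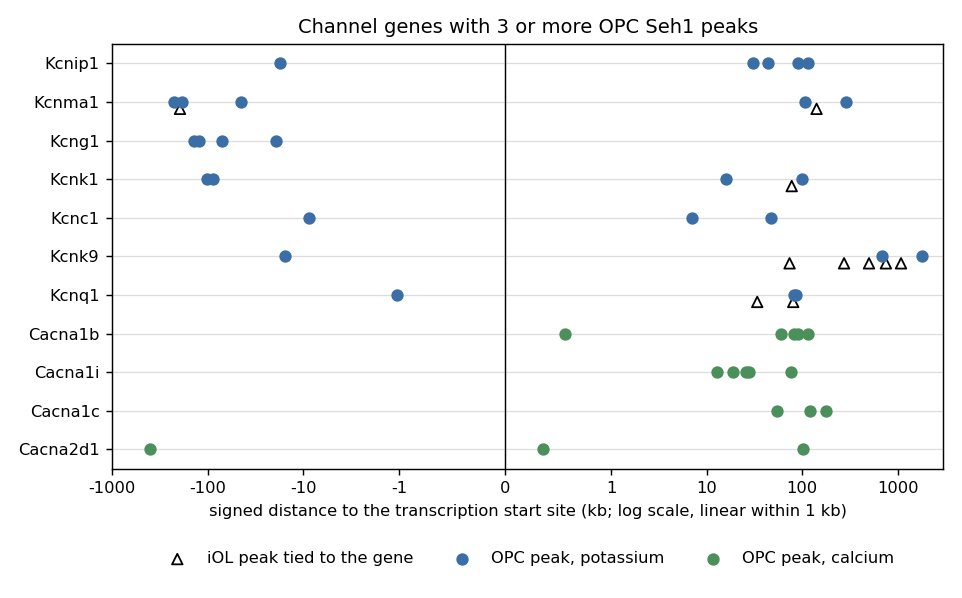
Signed distance to the TSS (x axis, kb, logarithmic and linear within 1 kb) of iOL peaks tied to the gene (open triangles) and of OPC peaks (filled circles) for the 11 channel genes with 3 or more OPC peaks (y axis). All 4 Kcng1 peaks lie upstream, from -141.1 to -19.3 kb, and all 5 Cacna1i peaks lie downstream, from 12.7 to 75.6 kb. The upstream peaks of Kcnip1 and Cacna2d1 are measured from other annotated starts than the downstream peaks of these genes.

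Genes with many peaks showed distinct layouts. Cacna1i, the T-type gene expressed in thalamus, had all 5 peaks in its own introns, at 12.7, 18.9, 25.6, 27.8 and 75.6 kb. The peaks at 25.6 and 27.8 kb were the closest pair of neighbouring channel peaks, 2014 bp apart, both in intron 4 of 40. The peak at 18.9 kb lay in a BC1 repeat copy, a sequence related to a small brain RNA. Cacna1b, the N-type gene of presynaptic terminals, had peaks at 0.568, 60.2, 82.9, 90.1 and 115.8 kb, in introns 1, 12, 18, 20 and 24 of 45. Cacna1c had 3 intronic peaks at 54.8, 122.1 and 178.2 kb, of which those at 54.8 and 178.2 kb lay in repeats. Calcium pore genes with several peaks thus carried them inside the gene.

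Among potassium genes, Kcnip1, which encodes a calcium-binding partner of Kv4 channels, had 4 peaks in its first intron at 30.7, 44.2, 90.0 and 116.0 kb. Its other peak lay between genes at -17.6 kb of a different annotated Kcnip1 start. That distance is therefore not on the same scale as those of the intronic peaks. Scores at Kcnip1 ran from 6.38 to 9.58. Kcnma1 had 3 peaks upstream between genes at -223.6, -187.4 and -45.1 kb and 2 in introns at 107.1 and 289.1 kb. The farthest upstream of these was labelled a CpG island and had the highest score of the 5 (8.94). Kcng1, a silent Kv6 subunit gene, had 4 peaks, all between genes at -19.3, -70.8, -123.7 and -141.1 kb, of which 2 lay in LTR repeats. Kcnk1, a leak channel gene, had 4 peaks, of which the one at 15.9 kb lay in its first intron and those at -100.7, -88.8 and 100.2 kb lay between genes. Kcnk9 and Kcnv1 held the most distant channel peaks, at 1777.7 kb and -2306.7 kb, which the nearest-gene rule assigns to them for want of a nearer annotated TSS.

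Channel peaks were also counted by chromosome, beside all annotated peaks. Chromosome 10 held 15 channel peaks at 11 genes (13.5%, beside 7.12% of all annotated peaks), chromosome 3 held 15 at 7 genes (13.5%, beside 7.4%) and chromosome 7 held 14 at 7 genes (12.6%, beside 6.08%). Chromosome 8 held 12 at 7 genes (10.8%, beside 5.54%), and 8 of these 12 were the peaks of Scn2b, Scn3b, Scn4b, Scn10a and Scn11a. Chromosome 1 also held 12 at 7 genes (10.8%, beside 10.9%), and chromosome 2 held 2 at 2 genes (1.8%, beside 6.76%). Some members are neighbours, such as Scn2b with Scn4b and Scn10a with Scn11a, so their peaks share a region. The genes counted here are those with a peak. How many channel genes each chromosome holds in all was not counted, and its part in these shares was not tested.

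The third comparison asked how strong the channel peaks were, taken as the score that the peak caller gave. These scores come from the authors' deposited table. Scores of channel peaks covered 5.75 to 10.2 with a median of 7.02 (95% order-statistic interval 7.02 to 7.66), beside a median of 7.66 over all annotated peaks. Scores below 10 fell within 0.01 of whole multiples of 0.638, so the medians were 1 step apart, at 11 and 12 steps. Scores above 7.66 were held by 27 channel peaks (24.3%, 95% exact binomial interval 16.7 to 33.4%), beside 27.6% of all peaks. By family the median was 7.02 for potassium, 7.34 for sodium and 7.66 for calcium peaks. Of all annotated peaks, 340 (3.74%) had a score above 10.2. This cutoff is the highest channel score itself, so no channel peak could lie above it.

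**Figure D4:**
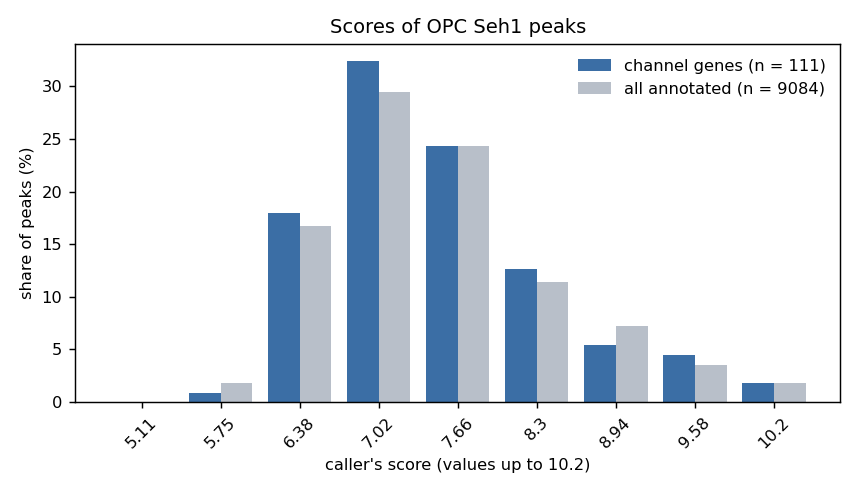
Share of peaks (y axis, %) at each value of the caller's score up to 10.2 (x axis) for channel peaks (left bars) and all annotated OPC peaks (right bars). The score of 7.02 was the most frequent in both, with 32.4% of channel peaks and 29.5% of all annotated peaks.

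The highest channel scores were 10.2, at the Kcnj12 promoter and at a LINE repeat 444.0 kb downstream of the TSS of Kcna4, a Kv1 pore gene. A score of 9.58 was reached at Kcna1 (36.5 kb, between genes), at the Kcnh8 promoter, in the first intron of Kcnip1 (90.0 kb), at the LINE repeat assigned to Cacna2d1 and at the 7SK copy near Cacng4. The highest sodium channel score was 8.3, reached at Scn2b and Scn3b among others. The focus ratio, a fraction that the caller reports for each peak, had a median of 0.75 over channel peaks and 0.778 over all annotated peaks.

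The last comparison asked which channel peaks were also called in iOL. Among the 111 channel peaks, 1 shared at least 1 bp with an iOL peak (0.901%, 95% exact binomial interval 0.0228 to 4.92%), beside 1.73% of all annotated OPC peaks. It lay between genes at a copy of the small nuclear RNA 7SK, 35.1 kb upstream of Cacng4 (chromosome 10, 96050436 to 96050640, score 9.58), and the overlap was 147 bp. The share for channel peaks is too imprecise at this number to be set apart from that of all peaks. The next closest iOL peak stood 450 bp from the first-intron peak of Scn4b. Others stood 2302 bp from the Kcnq1 peak at 83.2 kb, 3149 bp from the exon peak of Kcnk16 and 3485 bp from the first-intron peak of Kcna2. The median gap to the nearest iOL peak was 95.8 kb for channel peaks and 88.3 kb for all annotated OPC peaks.

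The deposited iOL list gives no genes. An iOL peak was tied to a channel gene where it lay between OPC peaks, or between an OPC peak and the TSS, of the same transcript start, since positions nearest to 1 TSS form a single stretch. Such a stretch could be set for 26 channel genes with at least 2 OPC peaks at 1 start, 7.87 Mb in all. It held 20 iOL peaks at 12 genes, 2.54 per Mb, beside 2.37 per Mb over the stretches of all genes. Potassium genes had 16 of the 20. Kcnk9 had 5, from 73.9 to 1084.3 kb, over a stretch of 1793.5 kb. Kcnj6, an inward rectifier gene coupled to G proteins, had 2 at 36.8 and 113.5 kb, and Kcnq1 2 at 33.9 and 80.7 kb. Kcnma1 had 2 at -195.4 and 141.6 kb, and Kcnv1 2 far upstream at -288.1 and -1655.4 kb. Kcnh8 (-331.5 kb), Kcnk1 (77.8 kb) and Kcnk10 (83.6 kb) had 1 each. Sodium beta genes had 2, at -5.75 kb of Scn2b and 13.4 kb of Scn3b, and alpha2delta genes had 2, at 29.9 kb of Cacna2d2 and 190.5 kb of Cacna2d3. None of these 20 peaks overlapped an OPC peak. Such overlap was rare throughout, with 1.73% of all annotated OPC peaks overlapping an iOL peak. No iOL peak was tied to Cacna1b, Cacna1c or Cacna1i, whose stretches covered 115.9, 178.3 and 75.7 kb. At 2.37 per Mb, stretches this short would mostly hold none, so these absences do not set the genes apart.

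Genes that work with these channels or are related to them were counted in the same way. Of 32 channel partner genes matched in the gene table, 17 had an OPC peak (53.1%, 95% exact binomial interval 34.7 to 70.9%), beside 30.1% of coding genes. Nfasc, which anchors channels at nodes and axon initial segments, had 6, Dpp10, a Kv4 partner, and Fgf12, which binds sodium channels, had 3 each. The scaffold gene Dlg1 had a peak in its 5' UTR at 262 bp and Lgi4, a ligand gene of glia, one in an exon at 307 bp. Of 34 related channel genes, such as cyclic nucleotide-gated and TRP genes, 12 had a peak (35.3%, 19.7 to 53.5%). Among them, Trpc7 had 4. Both lists were drawn up with earlier results of these data known. The limit of the nearest-gene rule holds here too. For example, the nearest peaks of Dpp10 and Nrcam lay 822.2 and 488.0 kb from the TSS. A link between channels and these genes was not tested.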

How the data were processed

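Chromatin bound by Seh1 was measured by ChIP-seq in iOL and OPC, with 1 library each. Per the submitters' processing notes, Bowtie2 and HOMER were used, and the builds rn6 and hg18 are named with no role. Peak thresholds and the treatment of reads that match several places are not stated, which bears on peaks in repeats. The authors deposited 1 list of positions per library (6704 iOL peaks of 209 bp and 9117 OPC peaks of 205 bp). They also deposited 1 annotated table, which is recorded under the iOL library. Per the file headers, that table comes from HOMER's annotatePeaks.pl on rn6 with an input whose name joins OPC Seh1 and iOL IgG. Each of the 9084 intervals it lists matches an OPC interval exactly and 0 match an iOL interval, so it was read as the annotation of OPC, and 33 OPC peaks without annotation were left out. The deposited score per peak has no definition in the header, and the deposited focus ratio is a fraction. Both were used as description only. The name of the input does not say whether iOL IgG was the control for calling the OPC peaks.

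Members were the table's rows selected by gene name. Position classes, distances and the nearest gene are the authors'. A repeat or CpG island label is given only where the detailed annotation names one. Coding genes with a RefSeq mRNA in the table of assembly GRCr8 were the background, matched by numeric gene ID; all 64 channel genes with a peak matched. Overlap meant at least 1 bp. A TSS was placed where signed distances of at least 2 peaks met within 2 bp. Of 5194 OPC peaks inside the stretches so defined, 0 had another nearest start. The nearest-start rule requires this, so it checks only how the stretches were set. Intervals are exact binomial (95%), and for medians they come from order statistics. No test was made between families or between stages. Overlaps, stretches and intervals were checked on simulated data. Genes were named where a peak lay in a promoter or exon, overlapped an iOL peak, or was among the 5 highest-scoring or the 5 nearest to a TSS in its family, and where the gene was among the 3 with the most peaks. Genes of subfamilies named by count, and pairs, hosts and tied iOL peaks, were added after values had been seen. The members and lists were chosen with earlier results of these data known. Alternatives varied repeats, distance, score, overlap, promoter width and gene body. A few genes that this rule names are not reported here. Python 3.11.15, pandas 2.3.3, scipy 1.17.1 and matplotlib 3.10.9 were used.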

Additional observations from a re-analysis of the deposited data

How the results depend on the processing

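The count of 111 channel peaks was 63 within 50 kb of a TSS, 27 with scores above the median and 62 inside the named gene. The last setting, chosen after seeing the data, also gave a potassium share of 51.6% against 64.9% over all channel peaks, and 40 channel genes with a peak (30.1% of 133, beside 13.1% of all coding genes). Without repeats, within 50 kb or inside any gene body, 48, 52 and 47 channel genes had a peak (36.1%, 39.1% and 35.3%), beside 22.7%, 22.1% and 16.3% of all coding genes. Channel peaks shared with iOL numbered 2 of 111 when a gap of up to 1000 bp counted, beside 2.88% of all annotated peaks. They numbered 0 without the 7SK copy, a setting also added after seeing the data. Counted by distance in place of class, promoter peaks numbered 13 within 1000 bp (11.7%, beside 9.47% of all annotated peaks) and 16 within 3000 bp (14.4%, beside 13.8%). Intronic channel peaks with scores above the median numbered 13 (48.1%, beside 26.2% of all such peaks). Each setting that counts fewer or more peaks does so by its construction. The other 13 of 23 alternatives kept their counts within 1.5 times, or their shares and medians within the counting interval. With 1 library per stage no library could be left out, and the depth of each is unknown. No paired analysis was possible because each stage has 1 library and no replicate numbers.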
